A study of Caenorhabditis elegans with 2 samples.

Results

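Chromatin immunoprecipitation followed by sequencing (ChIP-seq) of the forkhead transcription factor PHA-4 was examined at 10 Caenorhabditis elegans genes that make and desaturate fatty acids. They were fat-1, fat-2, fat-3, fat-4, fat-5, fat-6, fat-7, fasn-1, pod-2 and sbp-1, chosen by name out of 19973 nuclear protein-coding genes, and all 10 were found in the annotation. Regions were read from the deposited lists wherever their summit, the position of highest signal, lay in a gene or within 5 kb of it. The worms were whole young adults of strain OP37, males and females pooled, which carry the transgene wgIs37 encoding PHA-4 tagged with enhanced green fluorescent protein in an unc-119(ed3) III background. There was 1 group of 2 biological replicates. Libraries from untagged or wild-type worms were not analysed here, so no signal is set against them. In whole animals the signal cannot be assigned to a tissue.

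Fatty acids in C. elegans come from bacteria in the diet and from synthesis in the animal, mainly in the intestine. Acetyl-CoA carboxylase and fatty acid synthase build saturated chains, desaturases then add double bonds, and the worm can make all of its polyunsaturated fatty acids without a dietary supply. PHA-4 is the worm's FoxA-type factor, best known for specifying the pharynx, and it is also expressed in the intestine.

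Of the 839 regions that the authors retained as reproducible, called the optimal list, 3 lay within 5 kb of one of the 10 genes: 1290 bp upstream of fat-1, past the 3′ end of fat-2 and 3025 bp upstream of fat-5. None of the 3 was in a promoter window, taken as 1000 bp upstream to 200 bp downstream of any annotated transcript 5′ end, as was the case for 38.0% of all optimal regions. The strongest pooled regions of fat-3, fat-6, fasn-1 and sbp-1, which were not optimal, did lie in their promoter windows. That of fasn-1 ranked only 11826 of 24890, with q = 0.575. The share of all genes placed in this way is not given, so no contrast is drawn. The central 201 bases of the 3 optimal regions are printed because each holds the letters TGATAA. These are the core of sites for GATA factors, of which ELT-2 is the main intestinal one. All 3 are intergenic, and the sequence is the plus strand of ce11 (WBcel235), 5′ to 3′, centred on the pooled summit, with TGATAA or its reverse complement in capitals.
fat-1 upstream, chrIV:13314254-13314454: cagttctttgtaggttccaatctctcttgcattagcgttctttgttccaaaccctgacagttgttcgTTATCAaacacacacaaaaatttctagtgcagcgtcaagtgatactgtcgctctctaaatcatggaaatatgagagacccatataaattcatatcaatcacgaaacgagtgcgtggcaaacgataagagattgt
fat-2 downstream, chrIV:13327178-13327378: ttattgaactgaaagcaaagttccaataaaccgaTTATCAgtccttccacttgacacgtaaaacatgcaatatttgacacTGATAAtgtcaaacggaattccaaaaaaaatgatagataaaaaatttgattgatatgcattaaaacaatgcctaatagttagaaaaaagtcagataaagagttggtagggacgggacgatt
fat-5 upstream, chrV:17721879-17722079: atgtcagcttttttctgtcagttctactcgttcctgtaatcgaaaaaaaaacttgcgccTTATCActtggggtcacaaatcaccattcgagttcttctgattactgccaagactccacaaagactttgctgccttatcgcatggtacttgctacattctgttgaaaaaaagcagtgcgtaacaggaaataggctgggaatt

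A further stretch, from an intron of fat-4, is shown in the same way because it holds TGATAA 3 times, the nearest centred 2 bp from the summit.
fat-4 intron, chrIV:9801554-9801754: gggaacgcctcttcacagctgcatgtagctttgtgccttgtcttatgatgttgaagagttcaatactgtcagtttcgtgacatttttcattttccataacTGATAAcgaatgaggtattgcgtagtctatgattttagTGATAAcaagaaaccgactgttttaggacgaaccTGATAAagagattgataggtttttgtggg

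The remaining sequences hold the letters sought for the forkhead family itself: T, then A or G, then TT, then G or T, then A or G, then C or T, read on both strands. The fat-3 stretch is intronic and has 1 match, centred 2 bp from the summit. The stretch upstream of fat-6 has 6 matches, some of them overlapping, with the nearest centred 1 bp from the summit. Capitals mark the forkhead letters.
fat-3 intron, chrIV:9803763-9803963: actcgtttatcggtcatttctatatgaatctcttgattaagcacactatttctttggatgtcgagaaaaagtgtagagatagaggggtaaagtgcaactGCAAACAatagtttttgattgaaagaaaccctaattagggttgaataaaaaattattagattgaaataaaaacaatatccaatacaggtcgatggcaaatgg
fat-6 upstream, chrIV:11917033-11917233: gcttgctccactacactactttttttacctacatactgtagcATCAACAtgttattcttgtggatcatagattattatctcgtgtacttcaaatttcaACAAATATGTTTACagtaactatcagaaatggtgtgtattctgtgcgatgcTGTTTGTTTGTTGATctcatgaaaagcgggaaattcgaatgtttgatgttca

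Regions of 4 deposited lists were used: the optimal list, a relaxed list from the pooled alignments with 24890 regions, and a relaxed list of 30000 regions for each replicate. The relaxed lists include background by construction. The replicates stood apart. A q value of at most 0.05 was reached by 7548 regions of replicate 2 and by 4065 pooled regions. Replicate 1 had 0 such regions on the nuclear chromosomes, where its lowest q was 0.163, and its 13 regions at that level were mitochondrial. Of the 839 optimal regions, replicate 2 overlapped 839 and replicate 1 overlapped 580. The scaling of the authors' signal value is not stated and depth is unknown, so signals were ranked within a list and never compared between lists.

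None of the 10 genes had an optimal region in its promoter window, beside 3.52% of all protein-coding genes with one. Within 5 kb, 3 of the 10 had one, beside 10.9% of all genes. With q of at most 0.05 in the pooled list, 4 of 10 had a region in the promoter window (fat-3, fat-4, fat-6 and sbp-1) beside 12.8% of all genes, and 7 of 10 had one within 5 kb beside 36% of all genes. Only fat-7, fasn-1 and pod-2 had none within 5 kb. The promoter calls of fat-3 and fat-6 rested on the window of an internal annotated 5′ end. The median strongest pooled signal within 5 kb was 35.7 over the 10 genes and 17.0 over all genes, with genes that had no region entered as 0. The list is small, and neighbouring members share regions, so these counts describe it and were not tested.

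**Figure D1:**
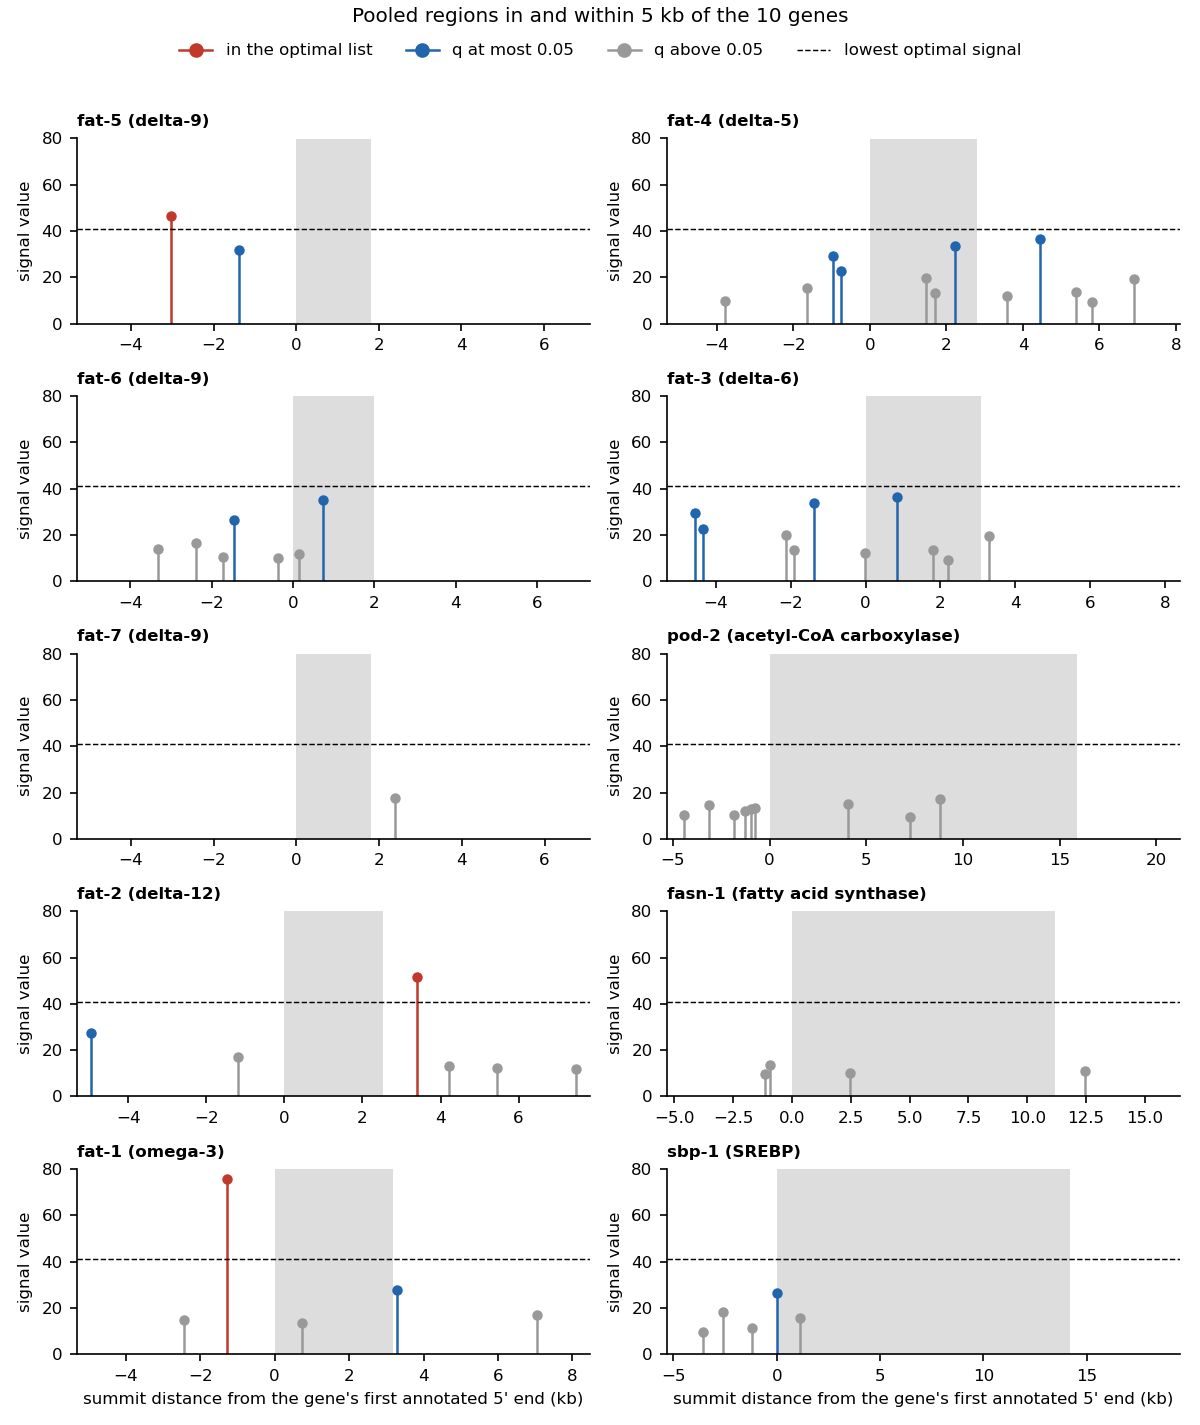
Pooled signal value of each region against the distance of its summit from the gene's first annotated 5′ end in kb, with the gene shaded and the dashed line at the lowest optimal signal, 41.0. Optimal regions, in red, stand at fat-5, fat-2 and fat-1, all outside the shaded gene, and every region at fat-7, pod-2 and fasn-1 had q above 0.05.

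**Figure D2:**
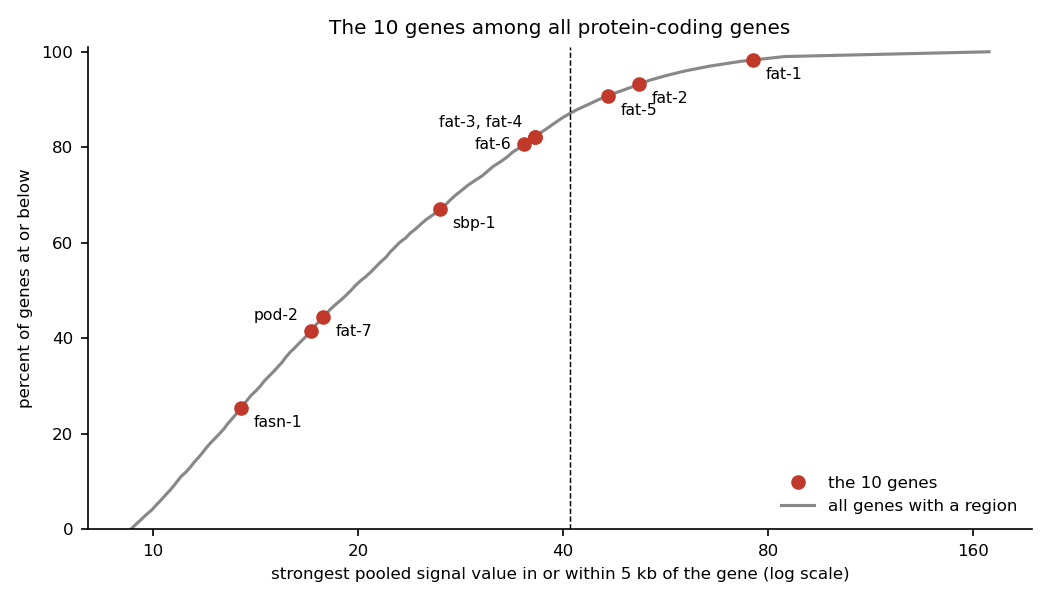
Cumulative percent of the 16993 protein-coding genes with a pooled region within 5 kb, against the strongest such signal on a log axis, with the 10 genes marked and the dashed line at the lowest optimal signal. The members spread from 13.5 at fasn-1 to 75.9 at fat-1.

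The polyunsaturated desaturases fat-1 and fat-2 lie in tandem on chromosome IV, on the same strand and 5061 bp apart. FAT-2 turns oleic acid into linoleic acid, and FAT-1 turns omega-6 into omega-3 fatty acids, an activity that mammals lack. At fat-1 (WBGene00001393, chrIV:13315644-13318811, plus strand) the upstream region at chrIV:13314184-13314523 had a pooled signal of 75.9 and ranked 82 of 24890, with q = 0.000608. Of all genes, 1.38% had a stronger region within 5 kb. The same place ranked 127 of 30000 in replicate 2, with a signal of 63.6, and 1048 of 30000 in replicate 1, with a signal of 10.8. The summits agreed within 8 bp of the pooled one in both replicates. It was among the higher regions of each replicate, although replicate 1 had a stronger one in a fat-1 intron, 687 bp downstream of the 5′ end, with a signal of 12.4 and rank 451. That intronic place had a pooled signal of only 13.4, rank 11966, and no region in replicate 2.

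At fat-2 (WBGene00001394, chrIV:13323873-13326395, plus strand) the strongest pooled region lay beyond the gene, at chrIV:13327108-13327447, between fat-2 and far-6, the next gene downstream. Its summit was 883 bp past the end of fat-2, outside the promoter window of far-6. The gap between the 2 genes is 1963 bp and they share a strand, so the summit also lay upstream of far-6. The region cannot be assigned to fat-2 rather than far-6 by position. The pooled signal was 51.6, rank 405. In replicate 2 it was 47.7, rank 393, with the summit 5 bp away. In replicate 1 the overlapping region had a signal of 7.82 and rank 4694. Its summit was 250 bp away, in the promoter window of far-6, so the replicates placed it differently. The next region of the tandem pair lay 117 bp past the end of fat-1, with a pooled signal of 27.6 and rank 2482. It had a replicate 2 counterpart at rank 1477 and none in replicate 1. The region nearest upstream of fat-2 was weaker, with a pooled signal of 16.9, and lay 1190 bp before its first 5′ end. In the promoter window of fat-2 itself, the pooled and replicate 2 lists held no region, and replicate 1 held 1, with a signal of 5.31 and rank 16786.

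The second tandem pair, fat-4 and fat-3, lies 796 bp apart on chromosome IV and also shares a strand. FAT-3 acts first in the pathway on linoleic and alpha-linolenic acid, and FAT-4 acts later to give arachidonic and eicosapentaenoic acid. Neither gene had an optimal region, but together they had the densest set of regions: 12 pooled regions were within 5 kb of fat-4 (WBGene00001396, chrIV:9799429-9802226) and 10 within 5 kb of fat-3 (WBGene00001395, chrIV:9803023-9806119). All 10 regions of fat-3 were among the 12 of fat-4, and 4 had q of at most 0.05. The strongest, in an intron of fat-3, had a pooled signal of 36.3 and rank 1239. Its summit was 840 bp downstream of the gene's first 5′ end and 655 bp upstream of the 5′ end of another transcript. The replicate 2 counterpart ranked 1369 with its summit 6 bp away, and that in replicate 1 ranked 11230 with its summit 149 bp away.

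Within fat-4, an intronic region ranked 1539 with a pooled signal of 33.6, and its summit was 251 bp upstream of the innermost annotated 5′ end of fat-4. Upstream of fat-4, regions 967 bp and 756 bp from its first 5′ end had pooled signals of 29.4 and 22.8. Replicate 1 put its strongest region of any member here, with a signal of 13.3 and rank 291, at a summit 1091 bp upstream of fat-4. That summit was outside the promoter window of fat-4 and in that of T13F2.2, the next gene upstream, on the other strand. No replicate 2 region overlapped this replicate 1 region. The replicate 2 region at chrIV:9798503-9798842 directly adjoined it, and the pooled region 967 bp upstream overlapped both. The pooled region 756 bp upstream was overlapped by 2 replicate 2 regions. The stronger ranked 3100, with its summit 756 bp upstream, and the weaker ranked 28337, with its summit 528 bp upstream. The replicates thus differed in where the strongest region upstream of fat-4 lay.

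**Figure D3:**
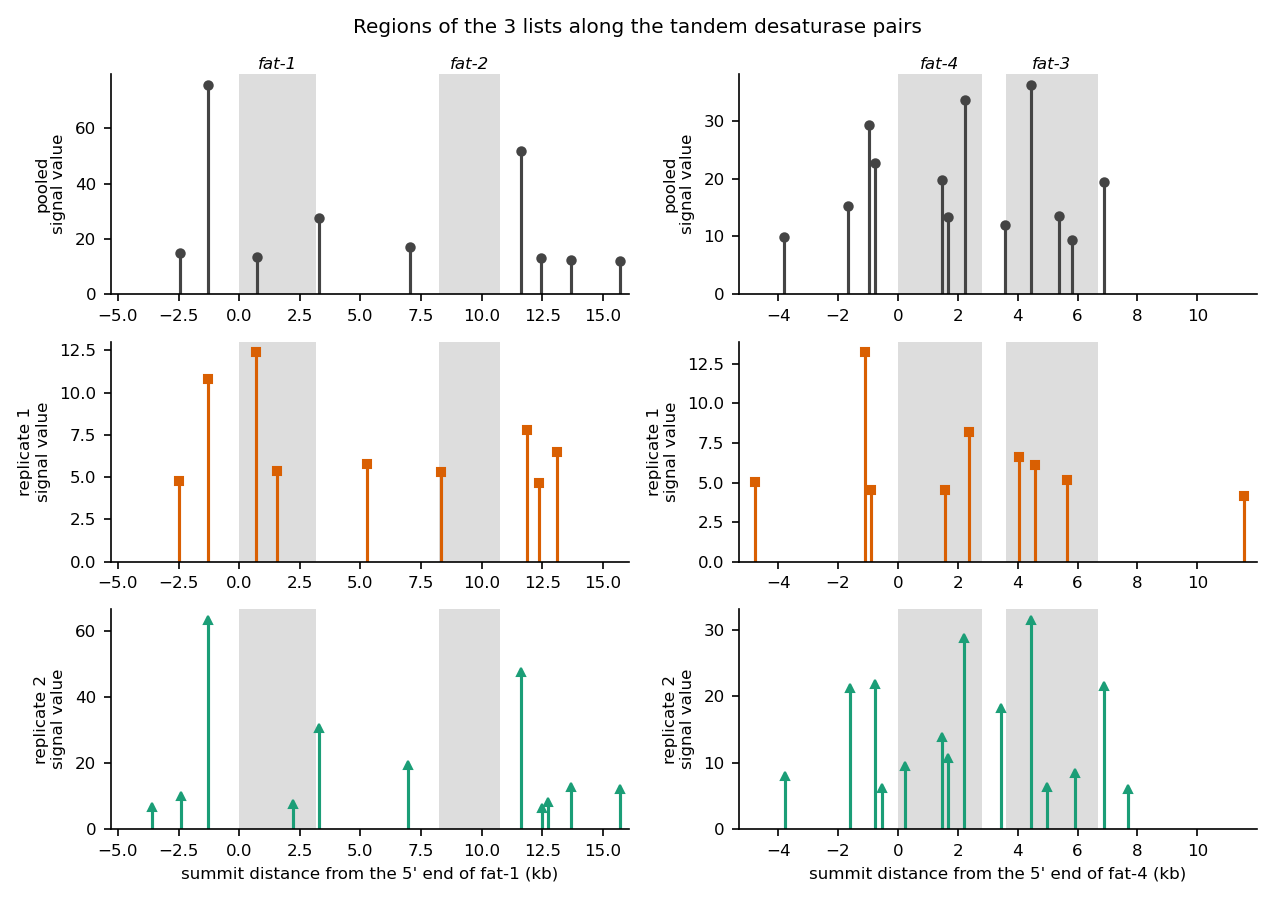
Signal value of each region against the distance of its summit from the 5′ end of fat-1 (left) or fat-4 (right) in kb, in the pooled, replicate 1 and replicate 2 lists, with genes shaded and a separate vertical scale in each panel. The region 1290 bp upstream of fat-1 is seen in all 3 lists, while the highest replicate 1 regions are intronic in fat-1 and upstream of fat-4.

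The monounsaturated desaturases differed among themselves. FAT-5 acts on palmitic acid, while FAT-6 and FAT-7 act on stearic acid to make oleic acid. At fat-5 (WBGene00001397, chrV:17725004-17726818, plus strand) only 2 pooled regions were found, both intergenic and upstream. The farther, 3025 bp upstream at chrV:17721809-17722148, was optimal, with a pooled signal of 46.5 and rank 577. It ranked 301 in replicate 2, with an identical summit, but 13906 in replicate 1, with the summit 231 bp away. The nearer, 1393 bp upstream, had a pooled signal of 31.9 and rank 1761, and it ranked 2350 in replicate 2 and 8084 in replicate 1. Both places ranked far higher in replicate 2 than in replicate 1.

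At fat-6 (WBGene00001398, chrIV:11913692-11915687, minus strand) the strongest region was intronic, with a pooled signal of 35.0 and rank 1362. Its summit was 740 bp downstream of the first 5′ end and 276 bp upstream of the innermost one, in whose promoter window it lay. The replicates were close to each other here. It ranked 1941 in replicate 2, with the summit 5 bp away, and 2203 in replicate 1, with the summit 44 bp away. This place lay also in the promoter window of ZK822.9, which lies 259 bp upstream of fat-6 on the other strand. The region 1446 bp upstream of fat-6, the one with 6 forkhead matches, had a pooled signal of 26.3 and rank 2787, and it stood in the promoter window of ZK822.10. It ranked 2919 in replicate 2 at the same summit, and the overlapping region of replicate 1 ranked 14620 with the summit 275 bp away.

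At fat-7 (WBGene00001399, chrV:7151353-7153146, minus strand) the pooled list held a single region, 579 bp past the gene's end and in the promoter window of F10D2.8. Its signal was 17.8, rank 6458, and q was 0.209. Replicate 2 ranked it 3426 with q = 0.00219, and replicate 1 had no overlapping region. Nothing in the pooled list lay upstream of fat-7 within 5 kb, whereas fat-5 had both of its regions there and fat-6 had 5 regions upstream. Of those 5, only the one 1446 bp upstream had q of at most 0.05. The nearest, 377 bp upstream, lay in a coding exon of ZK822.9, so the 5 lay in or beyond that gene. Replicate 1 had 2 regions upstream of fat-7, the higher at rank 20872 of 30000.

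In the pooled list the genes of chain synthesis had the weakest of the members' strongest regions, which was not so in each replicate. POD-2, acetyl-CoA carboxylase, makes the malonyl-CoA that FASN-1, fatty acid synthase, uses to extend the chain. At pod-2 (WBGene00004076, chrII:1136785-1152705, plus strand) 9 pooled regions were found, with signals of 9.46 to 17.1, and none had q of at most 0.05. The strongest was intronic and ranked 7126. Replicate 2 put its strongest at another intronic place, with rank 4326 and q = 0.00381, and replicate 1 at a place with rank 7973. Both of these replicate places lay in the promoter window of W09B6.4. At fasn-1 (WBGene00009342, chrI:8975366-8986540, minus strand) the pooled signals of 4 regions ran from 9.61 to 13.5, the highest with rank 11826 and 947 bp upstream. The highest fasn-1 regions were at other places in the replicates, at rank 2325 in an intron in replicate 1 and rank 14733 past the gene in replicate 2. Of all genes, 49.8% had a stronger pooled region than pod-2 and 63.5% a stronger one than fasn-1.

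The regulator had its strongest pooled region almost at its 5′ end. SBP-1 is the worm's SREBP, a transcription factor that activates lipid synthesis genes. At sbp-1 (WBGene00004735, chrIII:11428367-11442566, minus strand) the strongest pooled region, chrIII:11442406-11442745, had its summit 10 bp upstream of the annotated 5′ end, with a signal of 26.3, rank 2780 and q = 0.0131. In replicate 1 the same place had rank 728 and a signal of 11.4, with the summit 3 bp away. In replicate 2 the overlapping region had rank 7053 and a signal of 14.2, with the summit 131 bp away. Replicate 2 had stronger regions farther upstream, the highest 2590 bp from the 5′ end with rank 4595. The sbp-1 promoter was the only case among the 10 genes in which the 839 strongest nuclear regions of a replicate reached the gene's own promoter window.

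**Figure D4:**
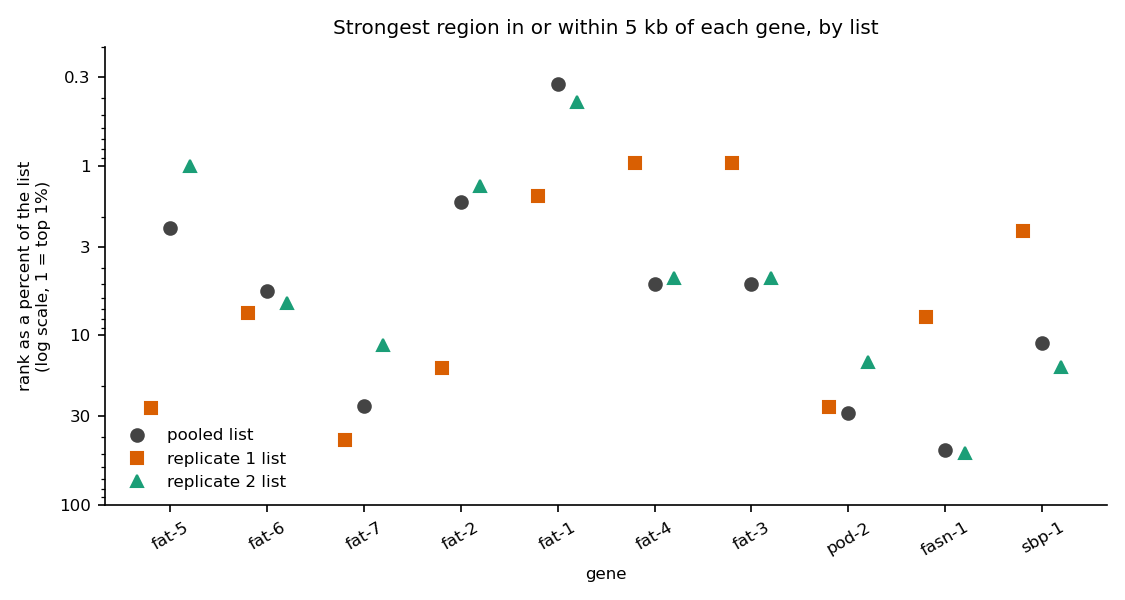
Rank of the strongest region in or within 5 kb of each gene as a percent of its list, on a reversed log axis, for the pooled, replicate 1 and replicate 2 lists. Replicate 2 lies below replicate 1 at fat-4, fat-3, fasn-1 and sbp-1 and above it at the other 6 genes, and fat-3 and fat-4 share their regions.

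The order of the genes by strongest region differed between the replicates. Among the 839 strongest nuclear regions of replicate 1, regions lay within 5 kb of fat-1, fat-3, fat-4 and sbp-1, or 4 of 10 genes beside 10.1% of all genes. Among the 839 strongest of replicate 2, they lay within 5 kb of fat-1, fat-2 and fat-5, or 3 of 10 beside 11.2%. Of the 10 genes, fat-1 was in both sets, but through different places: the intronic region in replicate 1 and the upstream region in replicate 2. In replicate 2, 9 of 10 genes had a region with q of at most 0.05 within 5 kb, beside 52% of all genes, and fasn-1 was the exception. In the promoter window, a region of any q was found for 6 of 10 genes in the pooled list, 6 in replicate 1 and 5 in replicate 2, beside 38.9%, 39.8% and 43.3% of all genes. A replicate 1 region overlapped a replicate 2 region within 5 kb of 9 genes, all but fat-7, beside 56.9% of all genes.

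The neighbourhoods of the 10 genes merge into 8 stretches, which held 49 pooled regions, or 3.39 per 10 kb beside 2.48 for the genome. The corresponding densities were 3.95 beside 2.99 in replicate 1 and 4.02 beside 2.99 in replicate 2. Of the 49 regions, 12 had q of at most 0.05, a share of 24.5% beside 16.3% of all pooled regions. Of these 12, 9 were intergenic and 3 intronic, and 0 lay in an exon. This split is not set beside that of all pooled regions, so it only describes the 12. Replicate 1 overlapped 67.3% and replicate 2 overlapped 87.8% of the 49, beside 49.8% and 79.7% of all pooled regions. Repeated sequence touched few of them: 46 of the 49 held no stretch of 36 bases found elsewhere in the genome. No share over all pooled regions is given for this count either.

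The letters under the summits were counted in windows of fixed length. Within 100 bp of the summit, TGATAA on either strand stood in 17 of the 49 regions, or 34.7%, beside 22.4% of all pooled regions. It stood in 8 of the 12 regions with q of at most 0.05, beside 30.8% of all such regions, and in each of the 3 optimal ones, beside 27.1% of the 839. The forkhead letters stood in 18 of 49 regions, or 36.7%, beside 50.4% of all, in 3 of the 12, beside 59.0%, and in 0 of the 3, beside 59.4%. The E-box CACGTG, the letters of many sites for helix-loop-helix factors, stood in 1 of 49 beside 4.62% of all, and GAGAGAG in 5 beside 6.16%. The members and the letters sought were chosen with earlier results of these data known. The regions at each tandem pair are neighbours, and none of these shares was tested. Base composition was alike, with a median G and C content of 36.3% in both sets.

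Other genes of lipid metabolism were read in the same way from a list of 51, all matched to the annotation. An optimal region lay in the promoter window of 2 of the 51 and within 5 kb of 6, beside 3.52% and 10.9% of all genes. A pooled region with q of at most 0.05 lay in the promoter window of 17 of the 51 and within 5 kb of 31, beside 12.8% and 36% of all genes. The optimal regions in promoters were at dgat-2, a diacylglycerol acyltransferase for fat storage, with a pooled signal of 65.7 and a summit 942 bp upstream in a window shared with fbxa-108, and at nhr-49, a nuclear receptor that controls desaturation and fat breakdown, with a signal of 43.8 and a summit 406 bp upstream. The next strongest in promoter windows were at mlcd-1, a malonyl-CoA decarboxylase, at 39.5, kat-1, a thiolase of beta oxidation, at 38.4, and elo-6, a fatty acid elongase, at 37.8. Of these windows, that of mlcd-1 was shared with idhg-1 and that of kat-1 with kars-1. The other 4 genes with an optimal region within 5 kb were acly-1, mdt-15, lpin-1 and cpt-3, named after their values were seen, with strongest signals of 69.7, 56.5, 58.4 and 47.7. ACLY-1 is an ATP citrate lyase that supplies acetyl-CoA, and MDT-15 is a Mediator subunit that works with SBP-1 and NHR-49.

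By role, q of at most 0.05 in the promoter window was met by 2 of 12 elongation genes, 2 of 7 genes of precursor supply, 4 of 7 regulators, 3 of 10 genes of lipid assembly and 6 of 15 genes of beta oxidation, beside 12.8% of all genes. Within 5 kb the counts were 5 of 12, 5 of 7, 5 of 7, 5 of 10 and 11 of 15, in the same order, beside 36% of all genes. These groups are small, and no difference between them was tested.

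The genes most like fat-1 in their ranks over the 3 lists were K08H2.7, hpl-1 and nhr-32. They were equally near, at a Euclidean distance of 0.0800 in rank percent among 15721 genes with a region in all 3 lists, because they share the same regions.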

How the data were processed

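Peak lists (narrowPeak) were deposited for the ce10 and ce11 builds, and those on ce10 were not used. Per the deposited notes, each relaxed list held peaks with background as input for the irreproducible discovery rate (IDR) procedure, and the optimal list held regions that passed it. The signal value is the authors' deposited score, of unstated scaling. The deposited −log10 of the q value was converted to q. Not given in the sources used here are the aligner, the peak caller, the IDR cut-off and the depth. The labels name a possible control, which was not analysed here, and give library fragments of 150 to 350 bp. Replicate numbers came from the labels.

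Coordinates are 1-based on ce11, whose chromosome lengths match WBcel235, and genes are from Ensembl release 115. The summit was column 2 plus column 10 of the deposited lists. A gene counted for a rule when a summit lay in its promoter window, or in the gene or within 5 kb, and each count is set beside the percent of all nuclear protein-coding genes. With 1 group, no test was made. Sequences were read from the RefSeq WBcel235 genome. Python 3.11.15, numpy 2.4.6, pandas 2.3.3 and matplotlib 3.10.9 were used, and the placement of regions was checked on simulated data.

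The members, the pathway list and the letters sought were chosen with earlier results of these data known. Named genes were all 10 members, genes whose promoter window held a region described, pathway genes with an optimal region in the promoter window and the 3 next strongest, and the 3 genes most like fat-1. Genes named outside this rule, after their values were seen, were acly-1, mdt-15, lpin-1 and cpt-3, and far-6 is named as a neighbour and for its promoter window. Other settings for the 5 kb count of optimal regions were chosen after seeing the data.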

Additional observations from a re-analysis of the deposited data

How the results depend on the processing

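Of 42 alternative settings over 11 results, 37 left the value unmoved, that is within 1.5 times for a count. With a promoter window of 2000 bp upstream to 500 bp downstream, the number of members with an optimal region in it was 1 (fat-1) in place of 0, beside 4.68% of all genes in place of 3.52%. The number with a replicate 2 region was 9 in place of 5, beside 55.9% of all genes in place of 43.3%. The same window gave 9 in place of 6 for pooled regions, beside 51.1% in place of 38.9%. It gave 9 in place of 6 for replicate 1 regions, beside 59.1% in place of 39.8%. With 500 bp upstream to 100 bp downstream, 4 members in place of 6 had a pooled region, beside 29.3%. The promoter counts thus depended on the window. Replicate summits within 100 bp of each other were found for 6 members, beside 35.0% of all genes. With a replicate left out, the other replicate's own list stood in for the pooled list, and its 839 strongest regions for the optimal list. No pooled or optimal list was made again, so these values are those of single replicates. They gave 0 to 1 for the optimal regions in the window, where the 1 was sbp-1 from the 839 strongest of replicate 1. They gave 5 to 6 for members with a region in the window, beside 6 in the pooled list, and 3 to 4 for members with a region within 5 kb, beside 3 in the optimal list. Regions per neighbourhood numbered 6.5 to 7.2 in place of 6.1, beside means over all genes of 4.05 to 4.09 in place of 3.42. Within 50 bp of the summit, 7 of 49 regions held the forkhead letters, in place of 18, beside 30.1% of all pooled regions in place of 50.4%. Ordered by −log10 q, the strongest replicate 1 region ranked 199 in place of 291, and the cause was not tested. No paired analysis was possible because there was 1 group and no test. The optimal region of fat-5 and that of fat-2 ranked high in replicate 2 and low in replicate 1, which had no nuclear region with q of at most 0.05. Depth is unknown, and a region missing from a list cannot be read as absence of PHA-4.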
